A study of Mus musculus with 2 samples.

Results

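Endothelial barcodes were studied in 2 mouse liver libraries of single-cell RNA-seq. In this assay a droplet tags the RNA of the cell it holds with its own barcode, and each captured molecule is counted once as a UMI (unique molecular identifier). Barcodes were kept from 500 UMIs upward where mitochondrial transcripts gave no more than 50% of UMIs. Members were chosen by detected genes. A kept barcode was called endothelial when it held UMIs of at least 4 of the 10 genes Stab2, Ptprb, Kdr, Eng, Ldb2, Tek, Mecom, Clec4g, Egfl7 and Cyyr1. It also had to hold fewer than 3 of 6 macrophage genes (C1qa, C1qb, C1qc, Clec4f, Cd5l, Adgre1) and fewer than 3 of 7 stellate cell genes (Reln, Dcn, Lrat, Pdgfrb, Col1a1, Col1a2, Col3a1). This gave 383 endothelial barcodes among 47880 kept barcodes, of 50078 deposited. The wild-type library (WT) held 145 of 29620, and the library of mice without miR-33 in hepatocytes (HKO) held 238 of 18260.

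Each library was made from a pool of 3 livers, so single animals cannot be told apart, and there was 1 library per genotype. Both groups were littermates that received CD-HFD, a choline-deficient high-fat diet used to induce steatohepatitis, for 6 months from 8 weeks of age. In HKO mice the miR-33 gene is flanked by loxP sites and removed by Cre recombinase under the albumin promoter (AlbCRE in the labels), which is active in hepatocytes. The hepatocytes and the sorted live non-parenchymal cells of a pool were prepared apart and combined 1:1, so shares of barcodes do not give shares of cells in the tissue. With 1 library per genotype no test between genotypes was possible. Each interval in brackets is at 95% and reflects the counting of UMIs or barcodes alone, without any spread between animals or preparations. A difference is called past 2-fold, and "higher" and "lower" compare these 2 libraries.

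The endothelium of the liver has 2 main forms. Sinusoidal cells line the capillaries between the plates of hepatocytes. They are perforated by open pores, lack a full basement membrane and clear waste molecules from blood through scavenger and lectin receptors such as stabilins and the mannose receptor. Vascular cells line the portal veins, hepatic arteries and central veins. They are continuous, tightly joined and marked by von Willebrand factor, connexins and elastic fibre proteins. Sinusoidal cells also differ along the path from portal to central vein, and those near the central vein secrete the Wnt signals Wnt2, Wnt9b and Rspo3 that set the zones of hepatocyte metabolism.

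The microRNA removed from hepatocytes of the HKO mice, miR-33, lies in an intron of Srebf2, a gene that controls cholesterol synthesis, and it represses genes of cholesterol export and fatty acid oxidation. Its mature 5p arm is shown because it is a product of the gene that was deleted. In endothelial cells, where the albumin promoter is not active, the gene is left in place. The seed, bases 2 to 8 from the 5′ end, is in capitals (RefSeq, GRCm38.p6, chr15:82198127-82198147, plus strand):
mmu-miR-33-5p: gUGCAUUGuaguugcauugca
The microRNA gene was not among the 32285 genes in the count tables. Its host gene Srebf2 had 60 UMIs in WT and 37 UMIs in HKO endothelial barcodes, which does not show the state of miR-33.

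Depth differed between the libraries and within each of them. The median endothelial barcode held 7841 UMIs and 3097 genes in WT (870 to 210581 UMIs) and 3798 UMIs and 2006.5 genes in HKO (782 to 31599 UMIs). A set of 44 endothelial genes, which joins the 10 genes of the rule with the sinusoidal genes and the genes shared by all endothelium listed below, made up 0.768% of all UMIs of WT members and 1.70% of HKO members. The deepest barcodes held the least of it. In barcodes over 10000 UMIs, 61 in WT and 37 in HKO, these genes made up 0.386% and 0.586% of UMIs, and such barcodes carried 79.1% of WT and 45.1% of HKO member UMIs. In 29 WT barcodes over 20000 UMIs the share was 0.147%, with a median of 57 endothelial UMIs per barcode. For comparison, 175 WT and 568 HKO barcodes with T and NK cell genes, which should lack most of these transcripts, had shares of 0.0496% and 0.0433%.

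Summed over their UMIs, the deep barcodes carried mostly hepatocyte RNA, but single barcodes varied. Genes of the hepatocyte list (20 genes such as those for albumin and apolipoproteins) made up a median of 8.90% of UMIs in WT members and 4.08% in HKO members. In single barcodes over 10000 UMIs they made up 2.44% to 24.3% in WT and 0.585% to 24.0% in HKO. The level of these genes was taken relative to barcodes without non-hepatocyte markers, which held fewer than 2 genes of each list of another cell type. Over summed UMIs this corresponded to 90.2% hepatocyte-type RNA in WT members over 10000 UMIs and 81.9% in HKO. In members with up to 10000 UMIs, 84 in WT and 201 in HKO, it corresponded to 48.4% and 31.4%, and the 44 endothelial genes made up 2.22% and 2.62% of 474513 and 743774 UMIs. Gene levels below are therefore compared first in these 84 and 201 barcodes, a limit that was chosen after the depths were seen, and over all members nearly every endothelial gene had a higher ratio. All-member ratios are given beside the genes whose direction differs there.

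**Figure D1:**
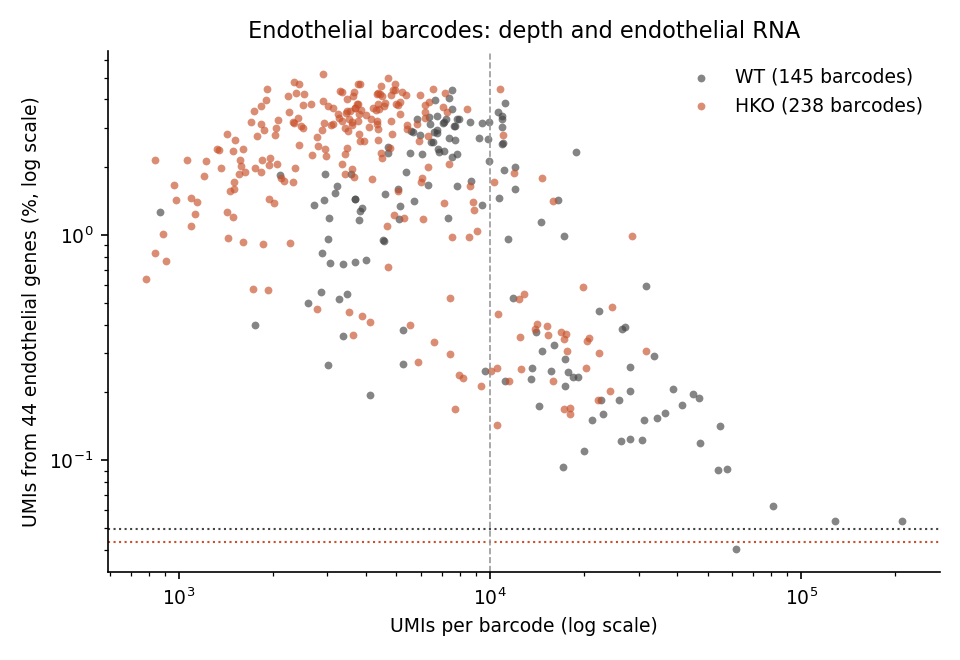
UMIs per barcode (x axis, log scale) against the percent of UMIs from 44 endothelial genes (y axis, log scale) in the 145 WT and 238 HKO endothelial barcodes, one point each. The dashed line marks 10000 UMIs and the dotted lines mark the level in T and NK barcodes (0.0496% in WT, 0.0433% in HKO), and barcodes over 20000 UMIs had 0.147% in WT and 0.394% in HKO.

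The label was checked on genes that the rule did not use. Of 20 genes shared by all endothelium, among them Pecam1 and Cdh5, which hold endothelial cells together, and the transcription factor Erg, the median barcode held 11 in WT and 10.5 in HKO. T and NK barcodes held a median of 1 and 0 of them, at median depths of 6639 and 2702.5 UMIs. Pecam1 was found in 69.0% of members in WT and 66.4% in HKO (22.9% and 12.3% of T and NK barcodes), and Flt1, a VEGF receptor, in 62.1% and 60.9%, against 0 of 175 and 0 of 568 T and NK barcodes, which allows shares of up to 1.71% and 0.528%. Thinned to 1000 UMIs per barcode, Flt1 was found in 16.0% and 31.2% of members. RNA of other cells was present too. At least 2 of 20 hepatocyte genes were held by every member, at least 2 of 12 monocyte and dendritic genes by 21.4% of WT and 17.6% of HKO members. At least 2 of 12 stellate genes were held by 26.2% of WT and 21.8% of HKO members, at least 2 of 10 cholangiocyte genes by 20.7% and 4.20%, at least 2 of 12 macrophage genes by 6.90% and 6.30%, and at least 2 of 15 T and NK genes by 1.38% and 4.62%. The summed level of the cholangiocyte genes went the other way over all members, at 162.7 CPM in WT against 1033.6 CPM in HKO, with 37.0% of the HKO UMIs of Spp1, the most abundant of them, in 1 barcode. In members with up to 10000 UMIs it was 71.7 against 35.0 CPM.

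The rule has a threshold, and its neighbours are given as a description. One gene short of it, with 3 of the 10 genes, lay 30 WT and 40 HKO barcodes that were otherwise eligible, with medians of 17058 and 1399 UMIs and of 4 and 3 of the 14 sinusoidal genes. Just inside it, with 4 genes, lay 21 and 38 members with medians of 4108 and 1671 UMIs and of 6 and 5 sinusoidal genes. The 74 WT and 123 HKO members with 8 to 10 genes held medians of 13 and 12. Droplets with endothelial genes that were left out for 3 or more macrophage genes numbered 33 in WT and 108 in HKO. Those left out for 3 or more stellate genes numbered 27 and 86, and 14 and 49 of all these were left out on both counts. They were deep, with medians of 16506 and 12152.5 UMIs for the droplets with macrophage genes and 17722 and 13419.5 for those with stellate genes.

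Members made up 0.490% (0.413 to 0.576) of kept barcodes in WT and 1.30% (1.14 to 1.48) in HKO, a share 2.66 times that of WT (2.16 to 3.30). This depended on depth. Among barcodes with at least 5000 UMIs, members were 112 of 2385 (4.70%) in WT and 80 of 2023 (3.95%) in HKO, a ratio of 0.842 (0.624 to 1.13). Among barcodes that held at least 2 genes of any non-hepatocyte list the ratio was 2.52 (2.04 to 3.12), from 145 of 4466 and 238 of 2908. Which genotype had more endothelial cells was not resolved at these depths.

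Over all genes, the comparison of all members gave 2126 of 11688 genes (18.2%) that were higher in HKO by 2-fold or more and 508 (4.35%) that were lower by as much. The median log2 ratio was 0.30 over all genes and 1.11 over the 20 genes shared by all endothelium. In members with up to 10000 UMIs, 757 of 9676 genes (7.82%) lay 2-fold or more above WT and 662 (6.84%) as far below, with medians of 0.06 over all genes and 0.25 over the shared endothelial genes. Ratios above 1 were found for 53.6% of all genes and, among 778 genes at least 5-fold above their level in barcodes without non-hepatocyte markers, for 83.5%, with a median log2 ratio of 0.33. Without the barcodes that held genes of T, NK, B or bile duct cells the counts past 2-fold were 729 and 452. With all barcodes weighted equally, they were 1305 and 928. Counts of genes past 2-fold moved with the barcodes that were included, and the counts within gene lists below are read against the shares over all genes.

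Nearly all members carried the sinusoidal program. It was read from 14 genes outside the rule: the scavenger receptors Stab1, Mrc1, Lyve1 and Fcgr2b, the lectin Clec1b, the coagulation factor gene F8, the DNase Dnase1l3, the ligand Bmp2, the receptors Gpr182, Flt4 and Plxnc1, and Oit3, Ehd3 and Aass. At least 2 of them were held by 142 of 145 WT members (97.9%) and 232 of 238 HKO members (97.5%), with medians of 11 and 10 genes and ranges of 0 to 14. In T and NK barcodes at least 2 were held by 24.6% in WT and 5.99% in HKO, with medians of 1 and 0. The most frequent there was Aass, an enzyme of lysine breakdown that hepatocytes also make, held by 65.1% and 31.0% of T and NK barcodes, while each of the other 13 was held by less than 10%. Thinned to 1000 UMIs, at least 2 genes were held by 70.1% of 144 WT and 84.0% of 231 HKO members, with medians of 3 and 6.

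Among members with up to 10000 UMIs the sinusoidal genes lay close together in the 2 libraries. Their summed level was 8588 CPM (UMIs per 1e6 UMIs) in WT against 9419.5 CPM in HKO, a ratio of 1.10 (1.06 to 1.14), and none of the 14 was past 2-fold in either direction. Mrc1, the mannose receptor, had 567 UMIs at 1195 CPM in WT against 895 at 1203 CPM in HKO, a ratio of 1.01 (0.905 to 1.12). Fcgr2b, an Fc receptor that clears immune complexes, had 465 UMIs at 980.0 CPM in WT against 751 at 1009.7 CPM in HKO, a ratio of 1.03 (0.917 to 1.16). Stab1 had 436 CPM in WT against 487 in HKO (ratio 1.12, 0.938 to 1.33). In these genes the intervals of the ratios included 1. Lyve1, a hyaluronan receptor, was somewhat higher in HKO, with 268 CPM in WT against 346 in HKO and a ratio of 1.29 (1.04 to 1.61). Dnase1l3, which degrades circulating DNA, was also higher, with 824 CPM in WT against 1022 in HKO and a ratio of 1.24 (1.10 to 1.40). So was Plxnc1, a semaphorin receptor, at 493 CPM in WT against 633 in HKO (ratio 1.28, 1.10 to 1.51). The 14 genes had a median log2 ratio of 0.18, against 0.33 over the 778 genes enriched against hepatocyte RNA. Hepatocyte-type RNA was 48.4% of UMIs in these WT members and 31.4% in HKO, and its part in these ratios was not tested. Gpr182, a scavenger of chemokines, had the lowest ratio of the 14, 0.871 (0.740 to 1.03), with 548 CPM in WT against 477 in HKO, and 1.61 (1.41 to 1.84) over all members. Over all members, with the deep barcodes included, every one of the 14 was higher in HKO and 11 were past 2-fold.

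Of 9 measured scavenger and lectin genes outside the rule 7 had ratios above 1 and none was past 2-fold, with a summed ratio of 1.03 (0.977 to 1.09). Their median log2 ratio was 0.16. Among the 778 genes enriched against hepatocyte RNA it was 0.33, with 83.5% above 1. Genes of the rule are given as a description. Stab2 (ENSMUSG00000035459, chr10:86841198-87008025, minus strand) is the main hyaluronan clearance receptor of sinusoidal cells. It had 557 UMIs at 1174 CPM in WT against 1390 at 1869 CPM in HKO, a ratio of 1.59 (1.44 to 1.76). Other genes of the rule in the same barcodes were Ptprb, a phosphatase that acts on the Tie2 receptor, with 2082 CPM in WT against 2686 in HKO (ratio 1.29, 1.19 to 1.39), and Eng, a co-receptor for BMP, with 457 CPM in WT against 676 in HKO (ratio 1.48, 1.26 to 1.74). Clec4g, a sinusoidal lectin, had 757 CPM in WT against 856 in HKO (ratio 1.13, 0.993 to 1.29), and Cyyr1 had 617 CPM in WT against 598 in HKO (ratio 0.969, 0.834 to 1.13) and 1.93 over all members.

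**Figure D2:**
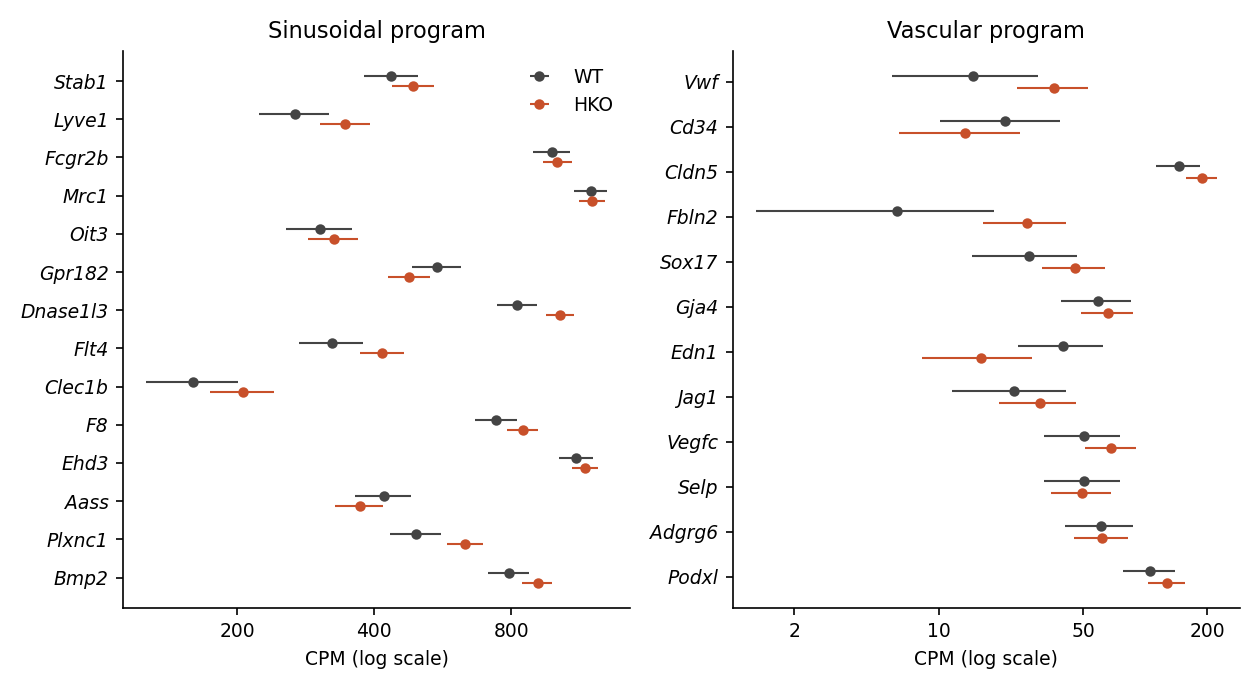
CPM (x axis, log scale) of the 14 sinusoidal genes (left) and of the vascular genes with UMIs in both libraries and at least 10 in all (right), in endothelial barcodes with up to 10000 UMIs (84 WT, 201 HKO). Points are levels over the summed UMIs of a library and bars are exact 95% Poisson intervals. None of the 14 sinusoidal genes differed 2-fold, while Fbln2 and Vwf were higher and Edn1 lower in HKO on fewer UMIs.

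The vascular program was much rarer. It was read from 21 genes, among them Vwf, the connexins Gja4 and Gja5, the endothelin precursor Edn1, the elastic fibre genes Eln, Fbln2 and Fbln5, the growth factor Vegfc, the Notch ligand Jag1, the adhesion molecule Selp and the receptor Adgrg6. The median member held 2 of these genes in WT and 1 in HKO. At least 2 were held by 76 WT members (52.4%) and 115 HKO members (48.3%), against 2 of 175 T and NK barcodes in WT and 0 of 568 in HKO, which allows a share of up to 0.528%. The vascular program was seldom seen without the sinusoidal one. Only the sinusoidal program, with at least 2 genes of it and fewer than 2 of the vascular, was held by 66 WT members (45.5%, 37.2 to 54.0) and 118 HKO members (49.6%, 43.1 to 56.1). Both programs were held by 76 and 114, neither by 3 and 5, and only the vascular by 0 of 145 in WT (up to 2.07%) and 1 in HKO. The list counted here holds Cldn5, a junction gene shared by all endothelium, and Podxl, which were detected in more members than Vwf. Without them both programs were held by 52 WT members (35.9%) and 54 HKO members (22.7%), and only the sinusoidal program by 90 (62.1%, 53.6 to 70.0) and 178 (74.8%, 68.8 to 80.2). This alternative was chosen after the data were seen. Thinned to 1000 UMIs, only the sinusoidal program was held by 94 of 144 (65.3%) and 167 of 231 (72.3%), both by 7 and 27, and only the vascular by 1 and 2.

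The vascular program was also read by its share of UMIs. The vascular genes gave a median of 4.65% of the vascular and sinusoidal UMIs of a barcode in WT and 5.19% in HKO. In 6 WT members (4.14%, 1.53 to 8.79) and 13 HKO members (5.46%, 2.94 to 9.16) they gave 30% or more. This limit was chosen after the values were seen, and the classes form a range. There were 8 barcodes in each library between 20% and 30%, 1 in WT and 4 in HKO between 30% and 40%, and 4 and 6 at 50% or more. Among the 6 WT barcodes, a barcode of 1761 UMIs rested on 1 vascular UMI and a barcode of 3025 UMIs on 2. In HKO, 4 of the 13, with 1098, 1442, 1840 and 2073 UMIs, rested on 1, 2, 2 and 3 vascular UMIs.

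**Figure D3:**
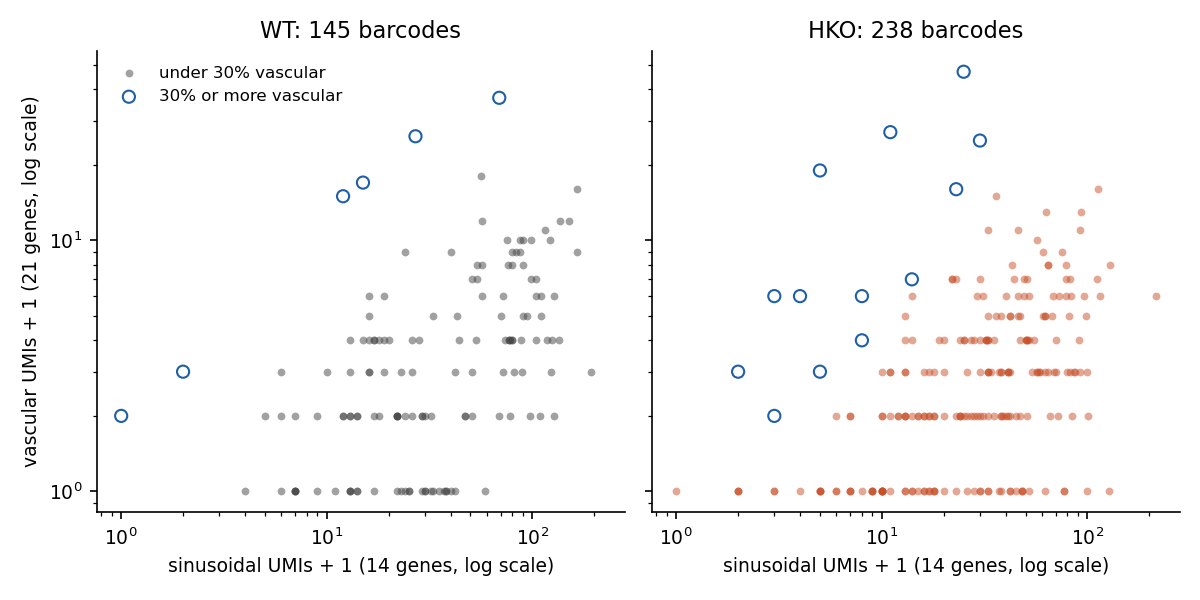
Sinusoidal UMIs plus 1 (x axis, log scale) against vascular UMIs plus 1 (y axis, log scale) for each endothelial barcode, WT on the left (145) and HKO on the right (238). Open circles are the 6 WT and 13 HKO barcodes in which vascular genes gave 30% or more of both programs' UMIs, and the other barcodes form a range below them, with 8 in each library between 20% and 30%.

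Some vascular-rich barcodes also held genes that define neither the class nor membership. Nrg1, the ErbB ligand neuregulin, ranked first of 853 genes by the lower of the ratios in the 2 libraries. All 30 of its WT UMIs in members with up to 10000 UMIs, and 41 of 44 in HKO, lay in vascular-rich barcodes, which numbered 5 and 12 at these depths. Over all members it was held by 3 of 6 and 7 of 13 vascular-rich barcodes and by 18 of 139 and 7 of 225 others, and 45.5% of its WT UMIs and 85.4% of its HKO UMIs lay in the class. Igfbp5, a binding protein for insulin-like growth factors, was held by 2 of 6 and 3 of 13 over all members, Ednrb, an endothelin receptor, by 4 of 6 and 6 of 13, and Fbn1, which encodes the microfibril protein fibrillin, by 3 of 6 and 5 of 13. Ratios of the class to other barcodes were taken only in members with up to 10000 UMIs, from 5 WT and 12 HKO vascular-rich barcodes. Igfbp5 had 20.2 (9.36 to 44.2) in WT and 16.8 (6.70 to 41.5) in HKO, and Ednrb 40.6 (23.0 to 74.7) and 9.27 (5.95 to 14.2). In WT, all 17 of these Igfbp5 UMIs and 34 of 44 Ednrb UMIs came from 1 barcode. Fbn1 had 10.8 (4.94 to 22.8) and 9.68 (3.80 to 22.9), and Vcam1, an adhesion molecule for leukocytes, 4.47 (2.29 to 8.19) and 4.35 (2.69 to 6.78). Over all members the axon guidance gene Slit2 had 6 UMIs in 1 vascular-rich and 1 UMI in other barcodes in WT, and 11 UMIs in 3 vascular-rich and 12 in 2 other barcodes in HKO.

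Genes of the membership rule are described without weight in these barcodes, since a barcode low in some of them could enter only through the others, and low sinusoidal levels are part of how the class was defined. Over all members Mecom, a transcription factor of arterial and venous endothelium, was detected in 5 of 6 in WT (43 UMIs) and 11 of 13 in HKO (64 UMIs), against 31 of 139 and 49 of 225 of the other members. Stab2 was held by 3 of 6 and 5 of 13, with 13 and 8 UMIs. In members with up to 10000 UMIs, Ptprb had levels of 2488 CPM against 2058 CPM in other WT barcodes and 2307 against 2707 CPM in HKO.

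Single vascular-rich barcodes differed from each other. In WT, 2 barcodes of 5142 and 7137 UMIs were rich in Nrg1. They held 17 and 12 UMIs of Nrg1, 5 and 10 of Adgrg6, 5 and 8 of Edn1, and 7 and 28 of Mecom. Another WT barcode of 9869 UMIs held 12 UMIs of Vegfc, 17 of Igfbp5 and 34 of Ednrb, together with 11 of Stab2 and 12 of Clec4g. In HKO, the barcode with the most vascular UMIs (46, of 8632 UMIs in all) held 20 of Nrg1, 17 of Vegfc, 7 of Fbln2, 6 of Gja4 and 17 of Cdh13. A further 3 HKO barcodes held the central vein signal Rspo3 (7, 2 and 12 UMIs) with 4, 4 and 17 UMIs of Cdh13 and no UMI of Nrg1. The barcode with 2 UMIs of Rspo3 held 4 UMIs each of Eln and Fbln5, and a different HKO barcode of 5053 UMIs held all 5 UMIs of Mgp, a matrix protein of large vessels. Whether a droplet held more than 1 cell was not tested.

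Between the libraries, the summed level of the 21 vascular genes in members with up to 10000 UMIs was 632 CPM in WT against 769 CPM in HKO, a ratio of 1.22 (1.06 to 1.40). Of 12 measured genes 2 were past 2-fold higher and 1 past 2-fold lower. Vwf (ENSMUSG00000001930, chr6:125546774-125686679, plus strand) had 7 UMIs at 14.8 CPM in WT against 27 at 36.3 CPM in HKO, a ratio of 2.46 (1.05 to 6.69), and Fbln2 had 3 UMIs in WT and 20 in HKO (ratio 4.25, 1.26 to 22.4). Edn1 had 19 UMIs in WT and 12 in HKO (ratio 0.403, 0.178 to 0.874), and 0.839 (0.383 to 1.75) over all members. In the library where each of these 3 genes was higher, most of its UMIs came from vascular-rich barcodes, with 17 of 27 for Vwf and 15 of 22 for Fbln2 over all HKO members and 13 of 24 for Edn1 over all WT members. All 3 are among the 21 genes that define this class, so their weight in it is partly built in and is given as a description. The junction gene Cldn5, which also counts among the genes shared by all endothelium, had 145 CPM in WT against 188 in HKO (ratio 1.29, 0.964 to 1.75), and Podxl, a coat protein of the vessel lumen, had 105 CPM in WT against 128 in HKO (ratio 1.21, 0.852 to 1.74).

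Position along the sinusoid was read from genes of its ends. Genes of the central vein end were summed from a list of 7 (Wnt2, Wnt9b, Rspo3, Kit, Thbd, Cdh13, Fabp4). Rspo3 (ENSMUSG00000019880, chr10:29452416-29535867, minus strand), a secreted amplifier of Wnt signals, was held by 6 of 84 members with up to 10000 UMIs in WT and 26 of 201 in HKO, with 19 UMIs at 40.0 CPM in WT against 93 at 125 CPM in HKO. Its ratio was 3.12 (1.89 to 5.42), and 3.69 (2.57 to 5.38) over all members. It had no UMI in 175 and 568 T and NK barcodes, and after thinning to 1000 UMIs it was held by 1.39% of members in WT and 6.93% in HKO. Cdh13 (ENSMUSG00000031841, chr8:118283733-119324921, plus strand), a cadherin that binds adiponectin and LDL, had 70 UMIs at 148 CPM in WT against 278 at 374 CPM in HKO, a ratio of 2.53 (1.94 to 3.34). Wnt2 had 44 UMIs at 92.7 CPM in WT against 124 at 167 CPM in HKO (ratio 1.80, 1.27 to 2.60), and Wnt9b had 9 UMIs in HKO and no UMI in WT, which allows up to 6.32 CPM. Kit, a receptor tyrosine kinase of the central end, had 29 UMIs in WT and 74 in HKO (ratio 1.63, 1.05 to 2.59). Not all genes of the list were higher. Thbd, the thrombin receptor thrombomodulin, had a ratio of 1.02 (0.682 to 1.53), and Fabp4, a carrier of fatty acids, was lower in HKO in these barcodes at 727 CPM in WT against 489 in HKO (ratio 0.673, 0.579 to 0.782). Over all members the direction of Fabp4 turned, with a ratio of 1.44 (1.26 to 1.64).

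In the same barcodes 5 of 6 measured genes of the central list and 3 of the 7 genes of the portal end had ratios above 1, and no portal gene was past 2-fold. Their median log2 ratios were 0.77 and -0.18. Of the 778 genes enriched against hepatocyte RNA 83.5% had a ratio above 1, with a median of 0.33. Ntn4, a netrin of the basement membrane, was lower in HKO in these barcodes, with 315 UMIs at 664 CPM in WT against 295 at 397 CPM in HKO and a ratio of 0.597 (0.508 to 0.703), while over all members it was higher, at 1.31. The Notch ligand Dll4 had 38 UMIs in WT and 39 in HKO (ratio 0.655, 0.408 to 1.05), the ephrin Efnb2 had 76 UMIs in WT and 105 in HKO (ratio 0.881, 0.650 to 1.20), and its relative Efnb1 had 92 UMIs in WT and 113 in HKO (ratio 0.784, 0.590 to 1.04). Over all members Dll4 had a ratio of 1.27, and the ephrins were also above 1. Msr1, a scavenger receptor, had 1.15 (0.900 to 1.47) and Ltbp4, a binding protein of latent TGF-beta, 1.26 (0.997 to 1.60). Adgrg6, an adhesion receptor, had 29 UMIs in WT and 46 in HKO (ratio 1.01, 0.622 to 1.67). As sums, the central list had a ratio of 1.17 (1.06 to 1.30) and the portal list 0.838 (0.762 to 0.922). The portal list was also below 1 in T and NK barcodes (0.650) and in barcodes without non-hepatocyte markers (0.640), where the central list had 1.52 and 0.991, and the part of such RNA was not tested. Over all members the central list was 2.18 (2.00 to 2.39) and the portal list 1.62 (1.49 to 1.75), with the deep WT barcodes included and the central list again above the portal list.

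Within each library the barcodes that held Rspo3 were set against the rest, to see which genes accompany it, a split chosen after the values were seen. Of members with up to 10000 UMIs, 6 in WT and 26 in HKO held it, at median depths of 6984 and 2734 UMIs against 5619 and 3540 for the rest. Cdh13 was higher in both, at 666 CPM with against 105 CPM without Rspo3 in WT and 1233 against 251 CPM in HKO. The ratios were 6.35 (3.71 to 10.6) and 4.92 (3.84 to 6.29). Wnt2 followed with 4.05 (1.85 to 8.22) and 2.03 (1.29 to 3.13), Thbd with 2.86 (1.14 to 6.30) and 2.19 (1.16 to 3.90), and Kit with 2.53 (0.755 to 6.78) and 2.95 (1.71 to 4.94). Rarb, a retinoic acid receptor outside the lists, had 6.76 (2.79 to 15.4) and 3.76 (2.28 to 6.06). Ntn4 was lower in HKO barcodes with Rspo3, 0.219 (0.0993 to 0.423), as was Lyve1 at 0.282 (0.134 to 0.528). In WT these had 0.651 (0.367 to 1.07) and 1.04 (0.486 to 1.98), with intervals that included 1. Msr1 had no UMI in the 6 WT barcodes, which allows up to 83.2 CPM, and a ratio of 0.229 (0.0828 to 0.507) in HKO.

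Neither split was purely sinusoidal. Mecom was higher with Rspo3 in WT, 7.57 (4.55 to 12.4), and lower in HKO, 0.211 (0.0567 to 0.554). All 28 of its WT UMIs with Rspo3 came from 1 vascular-rich barcode of 7137 UMIs, which held 1 UMI of Rspo3. In HKO, 3 of the 26 barcodes with Rspo3 were vascular-rich and held 7, 2 and 12 of its 93 UMIs. Elastic fibre genes of the vascular list also lay with Rspo3 there, where Fbln2 had 3.76 (1.27 to 10.1), Fbln5 had 4 UMIs with and 1 UMI without Rspo3, and Eln 4 with and 0 without. The 4 UMIs each of Fbln5 and Eln came from 1 vascular-rich barcode. The WT barcode of 7137 UMIs held 10 UMIs of Adgrg6, a gene of both the vascular and the portal lists that had no UMI in the 26 HKO barcodes with Rspo3 (up to 32.2 CPM).

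**Figure D4:**
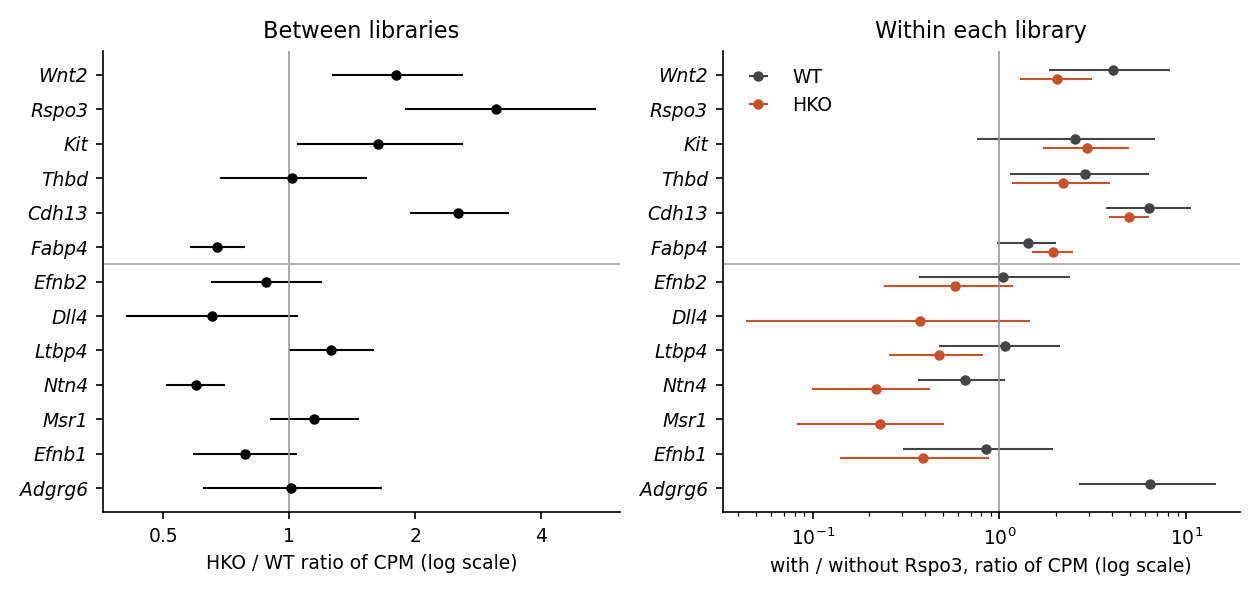
Genes of the central vein end (above the grey line) and of the portal end (below) in endothelial barcodes with up to 10000 UMIs. The left panel gives the HKO over WT ratio of CPM and the right panel the ratio between barcodes with and without Rspo3 in each library (6 and 78 in WT, 26 and 175 in HKO), both on log axes with exact 95% intervals, and genes with no UMI on one side have no point. Rspo3, Cdh13 and Wnt2 were higher in HKO, Fabp4 and Ntn4 were lower in these barcodes but not over all members, and Cdh13 was higher with Rspo3 in both libraries.

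Genes of VEGF and Tie signalling guide vessel growth and stability. Of 7 such genes outside the rule, 6 had ratios above 1 in members with up to 10000 UMIs and none was past 2-fold. Their median log2 ratio was 0.44 against 0.06 over all genes and 0.33 over the 778 genes enriched against hepatocyte RNA. With hepatocyte RNA subtracted over all members, the 10 genes of the list, those of the rule included, had a median of 0.04, with 6 above 1. The summed ratio of the 7 was 1.48 (1.36 to 1.61), against 1.08 in T and NK barcodes and 1.57 in barcodes without non-hepatocyte markers, and the part of such RNA was not tested. Nrp1 and Nrp2, co-receptors of VEGF, had 575 CPM in WT against 936 in HKO (ratio 1.63, 1.41 to 1.88) and 198 CPM in WT against 366 in HKO (ratio 1.85, 1.46 to 2.36). Flt1, which binds VEGF, had 322 CPM in WT against 456 in HKO (ratio 1.41, 1.16 to 1.72). The receptor Tie1 had a ratio of 0.994 (0.727 to 1.37), and 2.17 over all members. The rule genes Kdr, the main VEGF receptor, and Tek, the angiopoietin receptor, had 1.37 (1.22 to 1.54) and 1.10 (0.900 to 1.34).

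Sinusoidal cells send BMP signals that set iron handling in hepatocytes. The ligand Bmp2 (ENSMUSG00000027358, chr2:133552159-133562885, plus strand) had 375 UMIs at 790.3 CPM in WT against 679 at 913 CPM in HKO, a ratio of 1.16 (1.02 to 1.31), and Bmp6 had 339 CPM in WT against 411 in HKO (ratio 1.21, 0.999 to 1.48). Of 14 genes of BMP and TGF-beta signalling outside the rule 9 had ratios above 1, 1 was past 2-fold higher and none past 2-fold lower, with a median log2 ratio of 0.23 and a summed ratio of 1.16 (1.09 to 1.24). The gene past 2-fold was the signal transducer Smad1, with 26 UMIs in WT and 94 in HKO (ratio 2.31, 1.48 to 3.71). The TGF-beta receptor gene Tgfbr2 had 36 UMIs in WT and 111 in HKO (ratio 1.97, 1.34 to 2.95). The target genes Id1 and Id3 had 1.10 and 0.976, and 2.60 and 1.58 over all members. Hgf, a growth factor for hepatocytes, had 148 CPM in WT against 220.5 in HKO (ratio 1.49, 1.12 to 2.01). Of 13 measured secreted factors of endothelium as a whole, 10 had ratios above 1, with 1 past 2-fold higher (Rspo3) and 1 past 2-fold lower (Edn1). The counts of both lists are read against the 778 genes enriched against hepatocyte RNA. Of these 83.5% had ratios above 1, with a median log2 ratio of 0.33.

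Transcription factors of endothelial identity were read against the same values. Of 23 genes outside the rule 20 had ratios above 1 and none was past 2-fold, with a median log2 ratio of 0.46 and a summed ratio of 1.37 (1.32 to 1.43). Among the 778 genes enriched against hepatocyte RNA 83.5% had a ratio above 1. With hepatocyte RNA subtracted over all members, the 24 genes of the list had a median of 0.09, with 15 above 1. The same 23 genes, which include factors of lymphocytes such as Ets1 and Fli1, had 1.46 in T and NK barcodes and 1.01 in barcodes without non-hepatocyte markers. Maf, a factor of sinusoidal differentiation, had 784 UMIs at 1652 CPM in WT against 1744 at 2345 CPM in HKO, a ratio of 1.42 (1.30 to 1.55). Gata4, which specifies sinusoidal against continuous endothelium, had 289 CPM in WT against 417 in HKO (ratio 1.44, 1.18 to 1.78). Mef2c had 189.7 CPM in WT against 367 in HKO (ratio 1.94, 1.52 to 2.48), Meis2 666 CPM in WT against 1109 in HKO (ratio 1.67, 1.46 to 1.90) and Erg 99.0 CPM in WT against 169 in HKO (ratio 1.71, 1.21 to 2.44). The lowest ratio of the list was that of Hhex, 0.681 (0.444 to 1.05), with 1.20 over all members.

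Genes of the response to flow were read against the same values. Klf2, a factor induced by laminar flow, had 173 UMIs at 365 CPM in WT against 460 at 618 CPM in HKO, a ratio of 1.70 (1.42 to 2.03), and Nos3, the endothelial nitric oxide synthase, had 17 UMIs in WT and 58 in HKO (ratio 2.18, 1.25 to 3.99). Klf4 had 1.08 (0.834 to 1.42) and the endothelin receptor Ednrb 1.04 (0.750 to 1.45). Of 9 measured genes of flow, nitric oxide and endothelin 7 had ratios above 1, against 83.5% of the 778 genes enriched against hepatocyte RNA, with a median log2 ratio of 0.12 against 0.33. In this list 2 were past 2-fold higher (Nos3, and Cav1 with 1 UMI in WT and 9 in HKO) and 1 past 2-fold lower (Edn1). Of 8 measured Notch genes none was past 2-fold. The receptor Notch1 had 1.01 (0.786 to 1.30) and Notch4 19 UMIs in WT and 15 in HKO (ratio 0.504, 0.238 to 1.05, 1.16 over all members), while the coactivator Maml2 had 232 CPM in WT against 425 in HKO (ratio 1.83, 1.47 to 2.30). The Notch list had a summed ratio of 1.23 (1.09 to 1.39), against 1.55 in T and NK barcodes and 1.05 in barcodes without non-hepatocyte markers. The part of such RNA was not tested. In the list of caveolae and endocytosis the summed ratio was 0.979 (0.925 to 1.04), with 7 of 12 genes above 1 and 2 past 2-fold higher (Dnm2 and Cav1). Cavin2, a caveolar coat gene, had 599 CPM in WT against 487 in HKO (ratio 0.813, 0.694 to 0.953, 1.64 over all members), and Dab2, an adaptor for scavenger receptors, had 369 CPM in WT against 467 in HKO (ratio 1.27, 1.05 to 1.53). Immediate early genes, which tissue digestion can induce, had a summed ratio of 1.19 (1.13 to 1.24), against 0.878 in T and NK barcodes and 0.681 in barcodes without non-hepatocyte markers.

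Lipid genes lay on both sides of 1. Of 10 measured genes 5 had ratios above 1 and 5 below, none past 2-fold, with a summed ratio of 0.939 (0.878 to 1.00). Over all members the summed ratio was 1.48 (1.40 to 1.55), with 8 of 12 genes above 1, 2 past 2-fold higher and 2 past 2-fold lower. Gpihbp1, which anchors lipoprotein lipase to the vessel wall, had 691 CPM in WT against 844 in HKO (ratio 1.22, 1.07 to 1.40). Cd36, a fatty acid transporter, had 1094 CPM in WT against 902 in HKO (ratio 0.825, 0.734 to 0.927), and Fabp5, a fatty acid carrier, 154 CPM in WT against 117 in HKO (ratio 0.760, 0.551 to 1.05). Over all members both turned, with ratios of 1.39 (1.27 to 1.52) and 1.38 (1.06 to 1.80). Known targets of miR-33 were read as well, although the deletion is not made in these cells. Of 8 targets 3 had ratios above 1 and none was past 2-fold, with a summed ratio of 0.800 (0.720 to 0.889). It was 0.661 in T and NK barcodes and 0.932 in barcodes without non-hepatocyte markers. Abca1, the cholesterol exporter, had 86 UMIs at 181 CPM in WT against 203 at 273 CPM in HKO, a ratio of 1.51 (1.16 to 1.96), and in barcodes without non-hepatocyte markers it had 156 and 193 CPM. With the scaled hepatocyte RNA subtracted its ratio over all members was 0.870. Crot and Hadhb, which serve fatty acid oxidation, had 658 CPM in WT against 376 in HKO (ratio 0.573, 0.485 to 0.675) and 189.7 CPM in WT against 102 in HKO (ratio 0.539, 0.392 to 0.739), and both were higher in barcodes without non-hepatocyte markers, where they held 1269 and 1042 CPM for Crot and 283 and 229 CPM for Hadhb.

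Chaperones of the endoplasmic reticulum were lower in HKO in endothelial barcodes, and they were also lower in T and NK barcodes and in barcodes without non-hepatocyte markers. Of 19 measured genes of the unfolded protein response 18 had ratios below 1 and 7 were past 2-fold lower, with a median log2 ratio of -0.92. Hspa5, the main chaperone, had 286 UMIs at 603 CPM in WT against 234 at 315 CPM in HKO, and the ratio was 0.522 (0.437 to 0.623). Pdia6, which encodes a disulfide isomerase, had 188 CPM in WT against 78.0 in HKO (ratio 0.416, 0.293 to 0.585), and Hyou1, a chaperone, had 27 UMIs in WT and 12 in HKO (ratio 0.284, 0.131 to 0.579). The exception was Ddit3, a factor of terminal stress, with 5 UMIs in WT and 18 in HKO (ratio 2.30, 0.822 to 7.91). The summed ratio was 0.540 (0.507 to 0.575) in these endothelial barcodes, 0.541 in T and NK barcodes and 0.549 in barcodes without non-hepatocyte markers. Hspa5 held 692 and 369 CPM in the last of these, and the part of such RNA in the endothelial values was not tested. With hepatocyte RNA subtracted over all members, the median log2 ratio was -0.16, with 7 of 17 genes above 1, 5 past 2-fold higher and 3 past 2-fold lower. Heat shock genes had 0.684 (0.634 to 0.739), 0.791 and 0.757 in the same order, and with hepatocyte RNA subtracted their median turned to 0.74, with 5 of 7 genes above 1.

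Genes of antigen presentation were read in both MHC classes. MHC class I genes had a summed ratio of 0.746 (0.708 to 0.787), with 4 of 8 genes above 1. B2m, the light chain of the complex, had 3045 CPM in WT against 1677 in HKO (ratio 0.551, 0.510 to 0.594), while the heavy chain genes H2-K1 and H2-D1 had 0.990 (0.898 to 1.09) and 1.08 (0.926 to 1.26), and H2-K1 had 1.02 over all members. B2m was also lower in HKO barcodes without non-hepatocyte markers, with 2761 and 1565 CPM. MHC class II genes, typical of immune cells that present antigen, had 31 UMIs in WT and 81 in HKO and a summed ratio of 1.67 (1.09 to 2.61), with all 4 measured genes above 1 and Cd74 and H2-Eb1 past 2-fold. Their summed ratio was 2.80 over all members and 3.97 in T and NK barcodes, and over members without any macrophage or stellate gene their median log2 ratio turned below 0. Of 16 interferon response genes 13 had ratios above 1 and none was past 2-fold, with a summed ratio of 1.09 (1.01 to 1.17). Of 12 measured inflammatory genes, targets of NF-kB among them, 8 had ratios above 1, none was past 2-fold higher and 1, the chemokine gene Cxcl1, was past 2-fold lower with 18 UMIs in WT and 13 in HKO. Their median log2 ratio was 0.25 and the summed ratio 1.11 (0.992 to 1.23). The interferon and inflammatory counts are read against the 778 genes enriched against hepatocyte RNA. Of these 83.5% were above 1, with a median of 0.33. The chemokine Cxcl9 had 320.3 CPM in WT against 245 in HKO (ratio 0.764, 0.612 to 0.954, 1.59 over all members) and Cxcl16 63.2 CPM in WT against 96.8 in HKO (ratio 1.53, 0.987 to 2.43). Icam1, an adhesion molecule for leukocytes, had 18 UMIs in WT and 52 in HKO (ratio 1.84, 1.06 to 3.35). Markers of immune cells moved with these values. Macrophage list UMIs numbered 27 in WT and 136 in HKO (3.21, 2.11 to 5.05), and T and NK list UMIs 19 and 149 (5.00, 3.09 to 8.54), and their part was not tested.

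**Figure D5:**
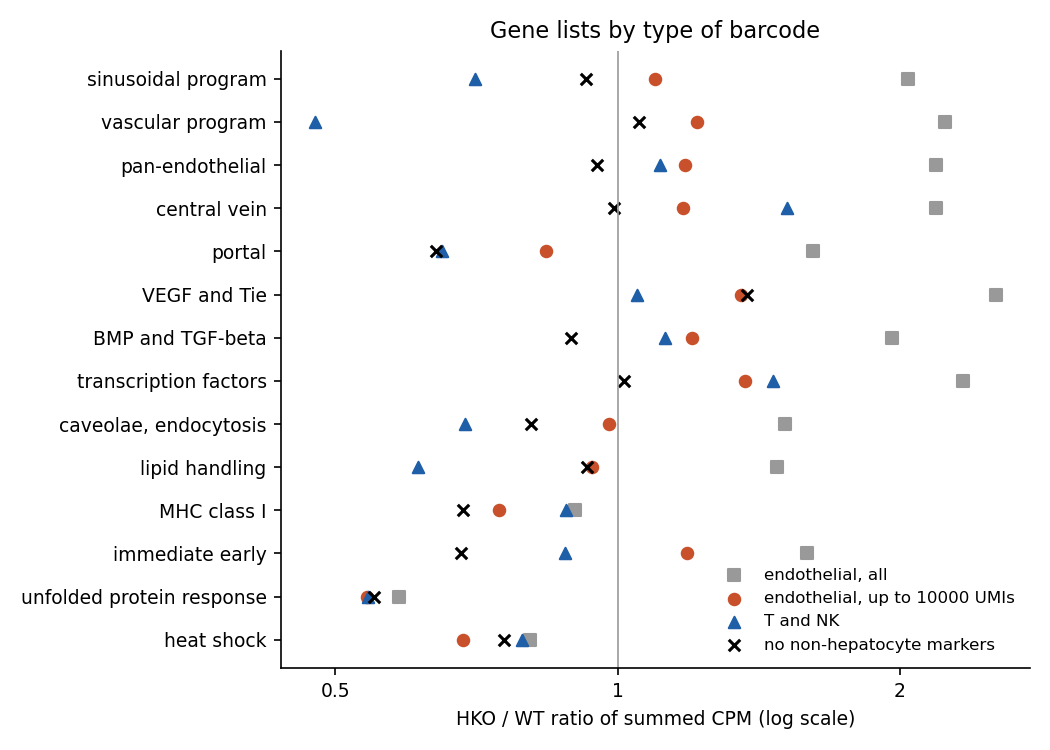
HKO over WT ratio of summed CPM (x axis, log scale) for 14 gene lists, genes of the rule included, in 4 kinds of barcodes: all endothelial, endothelial with up to 10000 UMIs, T and NK, and barcodes without non-hepatocyte markers. Over all endothelial barcodes the upper 10 lists lay between 1.48 and 2.53, in those with up to 10000 UMIs they lay between 0.838 and 1.37, and the unfolded protein response lay between 0.540 and 0.585 in all 4.

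Genes were also ranked one by one. Over all members, among 7320 genes with at least 50 UMIs and at most 25% of the UMIs of either library in 1 barcode, the highest ratios were those of Ntng2 (ratio 5.71, 3.16 to 10.9), a netrin of the cell surface, Pdgfd (ratio 4.95, 3.98 to 6.19), a growth factor for mural cells, Gpm6a, Gm17167, Onecut1, Hoxa5 (ratio 4.81, 2.62 to 9.33), Rps6ka2, Prex1, Kifap3 and Abcc5 (ratio 4.56, 2.72 to 7.91). Pdgfd had 111 UMIs in 47 WT members and 327 UMIs in 105 HKO members, and in members with up to 10000 UMIs 156 CPM in WT against 270.2 in HKO (ratio 1.73, 1.32 to 2.29). Gpm6a (1.66, 0.774 to 3.85) and Abcc5 (1.87, 1.04 to 3.54) also fell below 2-fold there, while the other genes named so far stayed past it. Cholangiocyte genes moved with this comparison, with a summed ratio of 6.35 (5.66 to 7.14), and their part was not tested. The lowest were Gm31508, Tubb2a (ratio 0.174, 0.109 to 0.265), Thrsp, Rpl9-ps6, Rgs16 (ratio 0.189, 0.124 to 0.278), Ly6d, Syvn1, Fasn (ratio 0.214, 0.129 to 0.338), Srebf1 (ratio 0.251, 0.174 to 0.354) and Hectd2os. All of these lowest genes stayed past 2-fold in members with up to 10000 UMIs, where Fasn had 0.425 (0.171 to 1.01). Fasn, Srebf1 and Thrsp serve fat synthesis in hepatocytes, and in barcodes without non-hepatocyte markers the level of Srebf1 was 138 CPM in WT against 32.5 CPM in HKO.

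To leave hepatocyte RNA aside, genes at least 5-fold above its level were ranked in members with up to 10000 UMIs, a filter chosen after the values were seen. Of 797 such genes 39 (4.89%) lay 2-fold or more above WT and 3 (0.376%) as far below, with a median log2 ratio of 0.33 over the 778 that were ranked. Ntng2 was again first, with 9 UMIs in WT and 45 in HKO (ratio 3.19, 1.54 to 7.42). It was followed by Pfkfb3, a switch of glycolysis, with 11 UMIs in WT and 54 in HKO (ratio 3.13, 1.62 to 6.64), Plekho2, Ksr1, Zfp521, Cdh13, Akr1b8 and Akap12. Hdc, which makes histamine, had 18 UMIs in WT and 63 in HKO (ratio 2.23, 1.31 to 4.01). Ntng2, Pfkfb3 and Ksr1 were also higher in HKO T and NK barcodes, with 12.6 and 28.9 CPM for Ntng2, 23.4 and 51.2 CPM for Pfkfb3 and 25.1 and 59.0 CPM for Ksr1. Markers of T and NK cells (5.00) and of macrophages (3.21) also had higher summed ratios in the endothelial barcodes ranked here, and their part was not tested.

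At the other end stood Ccn2 (ENSMUSG00000019997, chr10:24595442-24598683, plus strand), a matricellular target of the YAP and TAZ coactivators and of TGF-beta. It had 112 UMIs at 236 CPM in WT against 33 at 44.4 CPM in HKO, a ratio of 0.188 (0.123 to 0.279), and was detected in 20 of 84 WT barcodes (23.8%) and 19 of 201 HKO barcodes (9.45%). It had no UMI in 175 and 568 T and NK barcodes, which allows shares of up to 1.71% and 0.528%. Thinned to 1000 UMIs, it was found in 8.33% of members in WT and 4.33% in HKO. No single barcode carried it, since the richest held 14.4% of its WT UMIs and 8.70% of its HKO UMIs over all members. Over all members the ratio was 0.411 (0.291 to 0.570). In members of any depth with the sinusoidal program alone Ccn2 had a ratio of 1.36, where the 20 shared endothelial genes had a median log2 ratio of 2.00. Esm1, a proteoglycan of growing vessel tips, had 51 UMIs in WT and 28 in HKO (ratio 0.350, 0.213 to 0.566), Fbn1 had 33 UMIs in WT and 26 in HKO (ratio 0.503, 0.289 to 0.867), and Cyp26b1, which degrades retinoic acid, had 257 UMIs at 542 CPM in WT against 263 at 354 CPM in HKO, a ratio of 0.653 (0.548 to 0.778). Over all members Esm1 had 0.803 (0.514 to 1.23), while Fbn1 and Cyp26b1 turned, with 1.36 (0.812 to 2.26) and 1.31 (1.12 to 1.52). Ntn4, Dll4 and Fabp4, described above, were among the 20 lowest of these 778 genes.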

How the data were processed

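Droplet-based single-cell RNA-seq was analysed from the count matrices that the authors deposited, 1 per genotype, which hold whole-number UMI counts per gene and barcode without normalization (Cell Ranger 7.1.0 per the matrix header; mm10, R 3.0 and Seurat 3 per the submitters' processing notes). The counting options and the annotation used for counting are not given in the sources used here, so reads of overlapping genes, paralogues and antisense genes may be split in a way that cannot be checked. Doublets were not called by a tool. The limits on macrophage and stellate genes removed droplets with 3 or more genes of either list, and members could hold fewer. No gene of either list was found in 83 of 145 WT and 166 of 238 HKO members. An alternative removed members with T, NK, B or bile duct genes. Whether the libraries share barcode sequences was not counted here, since the WT barcode list was not used. T and NK barcodes held at least 3 of 15 T and NK genes, fewer than 4 of the 10 endothelial genes and fewer than 3 of either other list, so their endothelial level is capped by that choice. Barcodes without non-hepatocyte markers held fewer than 2 of the 10 endothelial genes and of each marker list of another cell type, so single genes could be present. They gave the level of hepatocyte and free RNA.

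UMIs were summed per library over member barcodes and divided by their total to give CPM. Genes with at least 10 UMIs in the 2 libraries together were measured. Intervals are exact Poisson for levels, Clopper-Pearson for shares and exact conditional binomial for ratios, and UMIs of 1 library do not stand for replicates. Where a level was 0, the limit is that of 3 counts. To thin a barcode, 1000 UMIs were drawn from it without replacement, and members with fewer (1 in WT, 7 in HKO) were left out. Scaled hepatocyte RNA is the share of UMIs that the hepatocyte genes imply, taken from their level in barcodes without non-hepatocyte markers, and it can pass 100%. Gene positions are from GENCODE M21 on GRCm38 and the microRNA from RefSeq. Calculations used Python 3.11.15 with scipy 1.17.1, numpy 2.4.6, matplotlib 3.10.9 and pandas 2.3.3, and the counting steps were tested on simulated data.

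The members and gene lists were chosen with earlier results of these data known. The text names members of those lists with at least 10 UMIs and, over all genes, the 10 highest and 10 lowest ratios among genes with at least 50 UMIs and no more than 25% of them in 1 barcode, without marker, ribosomal, mitochondrial and rule genes. Genes outside this rule, such as Mgp, Eln, Nrg1, Igfbp5, Rarb and those ranked against hepatocyte RNA, were chosen after their values were seen. Total counts were 125258947 UMIs in WT and 46353092 in HKO over kept barcodes. The alternatives changed the UMI, mitochondrial and gene limits, the other-cell genes allowed, the depth, the weighting, the subtraction of hepatocyte RNA and the low-count limit.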

Additional observations from a re-analysis of the deposited data

How the results depend on the processing

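No paired analysis was possible because each genotype had 1 library, and no library could be left out for the same reason. Depth and hepatocyte RNA set the limits. The share of barcodes that were endothelial had an HKO over WT ratio of 4.72 with at least 1000 UMIs (thinning kept membership as called on all UMIs, so it could not move this value), 3.56 with mitochondrial UMIs up to 20%, 3.88 with members up to 10000 UMIs and 0.842, the opposite direction, with at least 5000 UMIs. Genes at least 2-fold higher in HKO numbered 960 without any macrophage or stellate gene, 729 without T, NK, B or bile duct genes, 918 thinned, 1305 with barcodes weighted equally, 757 in members up to 10000 UMIs and 1325 among genes with at least 30 UMIs. Genes at least 2-fold lower numbered 1196 with hepatocyte RNA subtracted, 928 weighted equally and 289 among genes with at least 30 UMIs. The limit of 10000 UMIs was chosen after seeing the data. The difference between the libraries in barcodes with the sinusoidal program alone kept its direction under every alternative run, at 1.63 to 12.7 percentage points. The intervals of the main run overlapped, at 37.2 to 54.0 in WT and 43.1 to 56.1 in HKO. Barcodes with both programs turned, from 52.4% in WT and 47.9% in HKO to 4.86% and 11.7% when thinned. Thinned barcodes with neither program numbered 42 of 144 in WT and 35 of 231 in HKO.

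With hepatocyte RNA subtracted, the median log2 ratio over all members turned below 0 for sinusoidal (-0.11), vascular (-0.15), shared endothelial (-0.18), portal (-0.58), scavenger (-0.14), secreted (-0.036), Notch (-0.46), flow (-0.15), caveolae (-0.17), junction (-0.19), guidance (-0.12), monocyte or dendritic (-0.15), NF-kB (-0.35), basement membrane (-0.14), coagulation (-0.24), lipid (-0.67), miR-33 target (-0.44), T and NK (-0.45), macrophage (-1.29), B and plasma cell (-0.10) and rule (-0.07) genes, and above 0 for heat shock genes (0.74). In members up to 10000 UMIs it turned for portal (-0.18), bile duct (-0.87), mitochondrial (0.49), miR-33 target (-0.31), lipid (-0.04), MHC class I (-0.0054), cell cycle (0.73), B and plasma cell (-1.18), neutrophil (-1.30) and stellate rule (-0.61) genes. When thinned it turned for MHC class I (-0.37), miR-33 target (-0.04), glycolysis (-0.0038), macrophage (-0.87), neutrophil (-0.98) and cell cycle (1.02) genes, and with barcodes weighted equally for miR-33 target (-0.22), MHC class I (-0.01), glycolysis (-0.26), cell cycle (0.27) and red cell (0.30) genes. Over the 14 alternatives run for each, the median turned in 7 for miR-33 targets, 6 for cell cycle, 4 each for glycolysis and neutrophil and 3 each for MHC class I and lipid genes, and over 13 in 9 for B and plasma cell and 5 for red cell genes. Bile duct genes also turned without macrophage or stellate genes (-2.40), without T, NK, B or bile duct genes (-0.60) and with the sinusoidal program alone (-0.87). Single genes turned with hepatocyte RNA subtracted, at ratios of 0.0203 for 9030622O22Rik, 0.870 for Abca1, 0.627 for Abcg1, 0.840 for Clec4g, 0.585 for Crip1, 0.785 for Cyyr1, 0.911 for Egfl7, 0.908 for Ldb2, 0.992 for Ptprb and 0.834 for Tek. Abcg1 had 0.966 without T, NK, B or bile duct genes and 0.897 up to 10000 UMIs, where Cyyr1 had 0.969. Appl1 (0.900) and Cpt1a (0.911) turned when thinned, Crip1 (0.912) weighted equally and Ccn2 (1.36) with the sinusoidal program alone. The causes were not tested.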
